A study of Mus musculus with 16 samples.

Results

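The enzymes described here are those that write and remove methyl and acetyl groups on histones, together with the enzymes that methylate DNA or oxidise DNA methylation. They were taken by name from the 22046 protein-coding genes of the count table, as every gene whose symbol begins with Kmt, Kdm, Hdac, Kat, Setd, Smyd, Prmt, Sirt or Nsd and a number, or is *Ezh1*, *Ezh2*, *Dot1l*, *Ehmt1*, *Ehmt2*, a Suv39h gene, a Tet gene or a *Dnmt1* or Dnmt3 gene. The rule found 91 members and used no measured value. A further 9 genes with such names and another biotype, pseudogenes and antisense transcripts among them, were left out. RNA was sequenced from mouse TCF1+CD8+ T cells, which were derived from naive CD8+ T cells of the C57BL/6J mouse spleen by repeated activation with anti-CD3/CD28 microbeads in low-dose IL-2 (85 U/ml) for 4 days. The cells were preincubated for 1 h without or with prostaglandin E2 (PGE2, 100 ng/ml) and then kept for 4 h in IL-2 alone (unstimulated) or in IL-2 with 1 bead per cell (stimulated). This gave 4 groups of 4 replicates: unstimulated untreated, unstimulated with PGE2, stimulated untreated and stimulated with PGE2. All 4 groups therefore shared the earlier activation and the IL-2, and the cells are a culture model of stem-like T cells rather than cells taken from a tumour.

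Histone methyltransferases place methyl groups on lysines or arginines, using S-adenosylmethionine as donor, and demethylases take them off again. Acetyltransferases place acetyl groups, which loosen chromatin, and histone deacetylases and sirtuins remove them. The DNA methyltransferases set and copy methyl marks on cytosines, which the TET dioxygenases oxidise. In CD8+ T cells these enzymes are known for fixing or releasing the gene programmes of memory, effector and exhausted cells. Several of them also modify proteins other than histones.

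Libraries held 22678254 to 42950763 counts, so that for most members the spread between replicates, and not counting error, limits the precision. The 6 genes of CD8+ T cell identity summed to between 2713 and 4756 CPM (counts scaled to library size by TMM) in every library, while the 6 myeloid and 4 erythroid markers each lay under 1 CPM in every library, as did Ms4a1 and Pax5 of the B cell list and Ncr1, Klrb1c and Klra8 of the NK cell list. The B cell list summed to between 4.47 and 21.01 CPM, the CD4 list to between 18 and 40.55 CPM, and the NK list, which here was Eomes alone, to between 5.546 and 177.9 CPM. A list of 18 proliferation genes moved with the conditions: it summed to between 5208 and 5751 CPM in unstimulated untreated cells, 4550 and 5168 in unstimulated cells with PGE2, 3610 and 4296 in stimulated untreated cells, and 3230 and 4110 in stimulated cells with PGE2. The part of proliferation in the differences among the enzymes was not tested. In bulk RNA, fewer cells expressing a gene and less RNA per cell cannot be told apart.

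Most of the family was expressed. Of the 91 members, 86 had enough reads to be tested in at least 1 comparison and 85 in each of them. *Dnmt3c*, *Dnmt3l*, *Hdac11*, *Kdm5d* and *Prmt8* were close to 0 and were tested in none, and *Hdac9*, with 1 to 23 counts per library, was tested in 3 of the 5 fits. Those are the fits that hold unstimulated cells with PGE2, where *Hdac9* was highest. The median level of the members in unstimulated untreated cells was 8.55 FPKM (fragments scaled to exon length and sequencing depth, so that genes can be compared). Per length, the highest was *Hdac7*, a class IIa histone deacetylase of lymphocytes, at 78.9 ± 6.14 FPKM (SD, n = 4), followed by *Dnmt1*, the maintenance DNA methyltransferase, at 52.7 ± 0.642 FPKM and *Hdac1*, a class I deacetylase of corepressor complexes, at 46.04 ± 2.01 FPKM. In stimulated untreated cells the order by FPKM began with *Prmt1*, the main asymmetric arginine methyltransferase, at 88.9 ± 15.1 FPKM, then *Hdac7* at 76.04 ± 6.22, the H3K27 demethylase *Kdm6b* at 62.5 ± 14.8 and the H3K79 methyltransferase *Dot1l* at 54.5 ± 2.89. The gap between *Prmt1* and *Hdac7* was smaller than the SD of *Prmt1*, and the gap between *Kdm6b* and *Dot1l* smaller than the SD of *Kdm6b*. The heatmap of all tested members shows how these levels shifted from group to group.

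**Figure D1:**
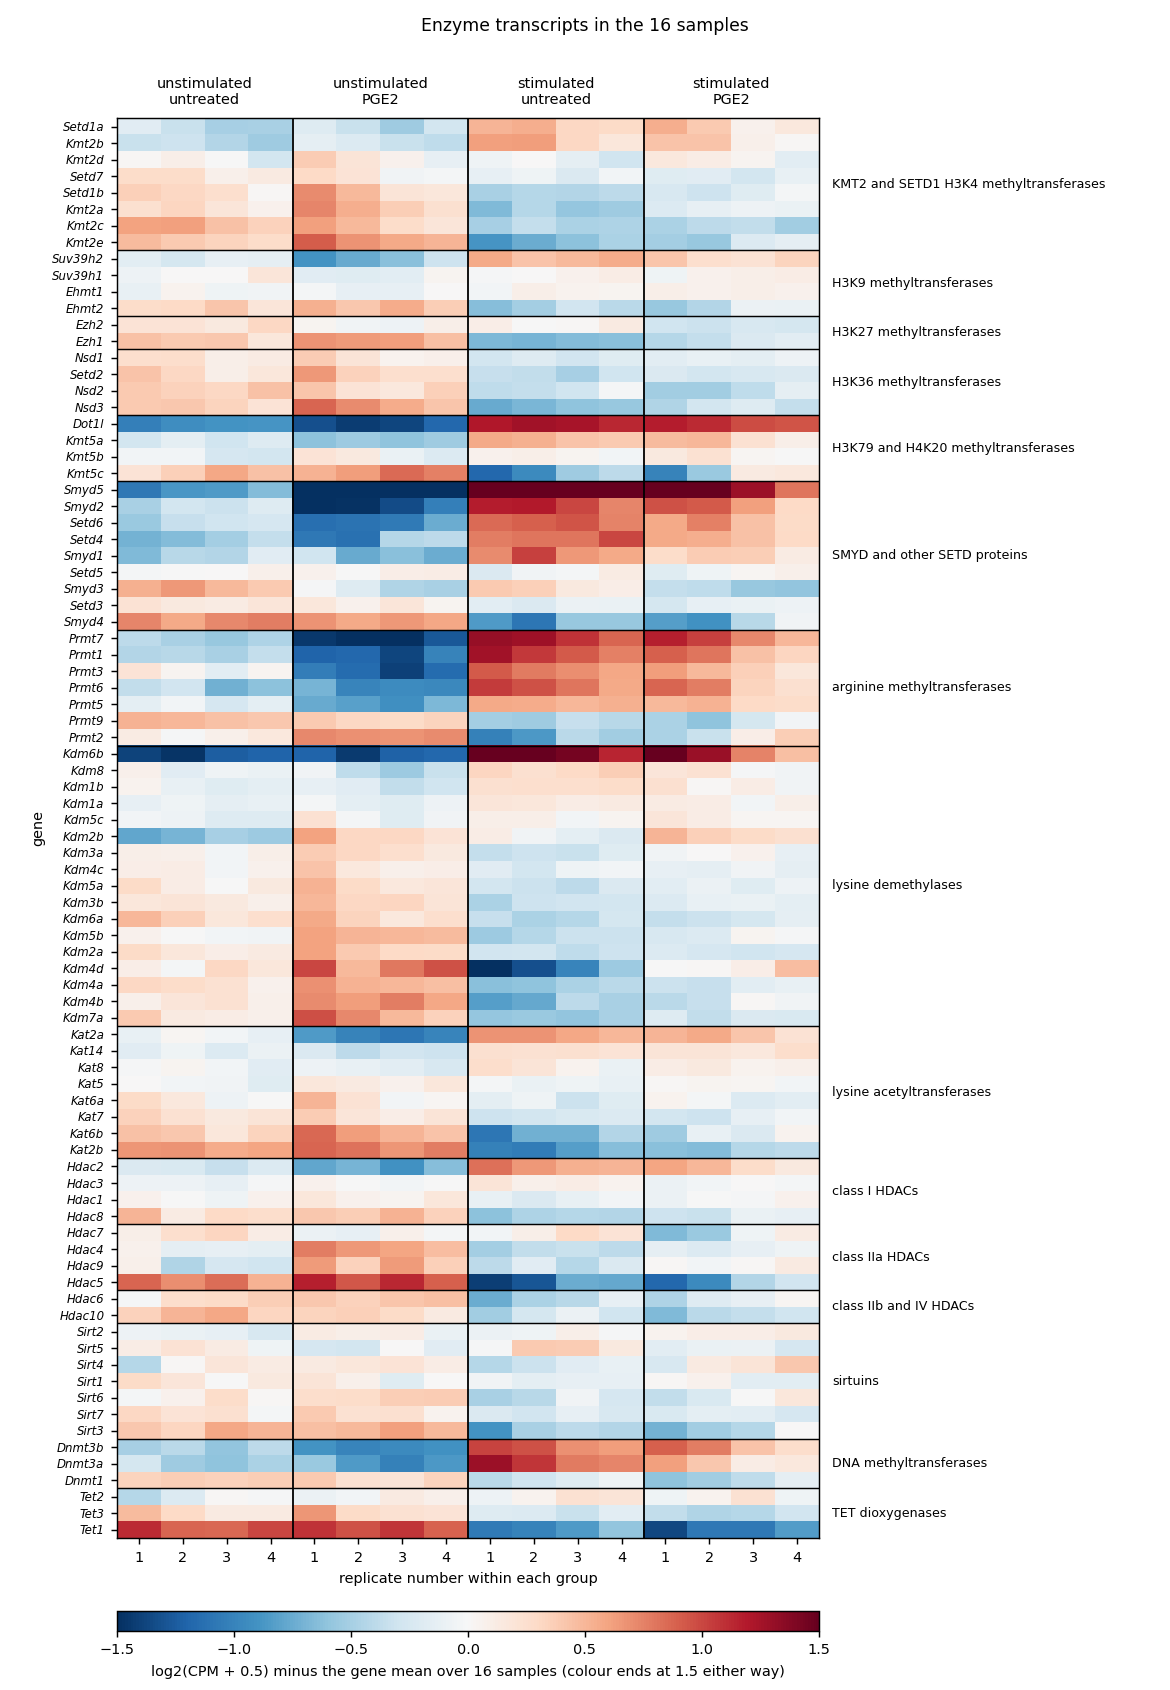
Levels of the 86 tested members in the 16 samples, as log2(CPM + 0.5) minus the gene's mean over all samples; red is above and blue below that mean, and colours end at 1.5. Genes are grouped by family and ordered by their response to stimulation with PGE2, and *Prmt1*, *Prmt3*, *Prmt5*, *Prmt7*, *Smyd2*, *Smyd5* and *Kat2a* step from blue in unstimulated cells with PGE2 to red in stimulated cells.

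The first comparison asks what PGE2 did to cells that received no new stimulus. With PGE2, 5 of 7 tested arginine methyltransferases, 4 of 9 SMYD and SETD proteins and the acetyltransferase *Kat2a* fell. In turn 9 of 17 lysine demethylases and 3 of 4 class IIa deacetylases rose, counting *Hdac9*, which had few reads. Of 86 members tested, 23 were higher with an adjusted p below 0.05, against 12.9% of all 14505 genes tested, and 17 were lower, against 15.5% of all genes. The median log2 fold change was 0.07 over the members and −0.00102 over all genes. Changes of at least 2-fold (differentially expressed genes, DEGs) were found for 6 members, when 3.38% of all genes were DEGs: *Hdac9* and *Kdm2b* were higher, and *Prmt3*, *Prmt7*, *Smyd2* and *Smyd5* were lower. *Hdac9* had enough reads to be tested here only through the PGE2 group, which favoured a rise. With at least 10 counts required in every sample, 5 members were DEGs, 1 higher and 4 lower. With the replicate number as a block, 38 members were higher and 24 lower, when 23.6% of all genes were higher and 24.2% lower. Log2 fold changes here and below are from edgeR on counts, treated over untreated or stimulated over unstimulated, with n = 4 in each group, and values after ± are SDs.

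**Figure D2:**
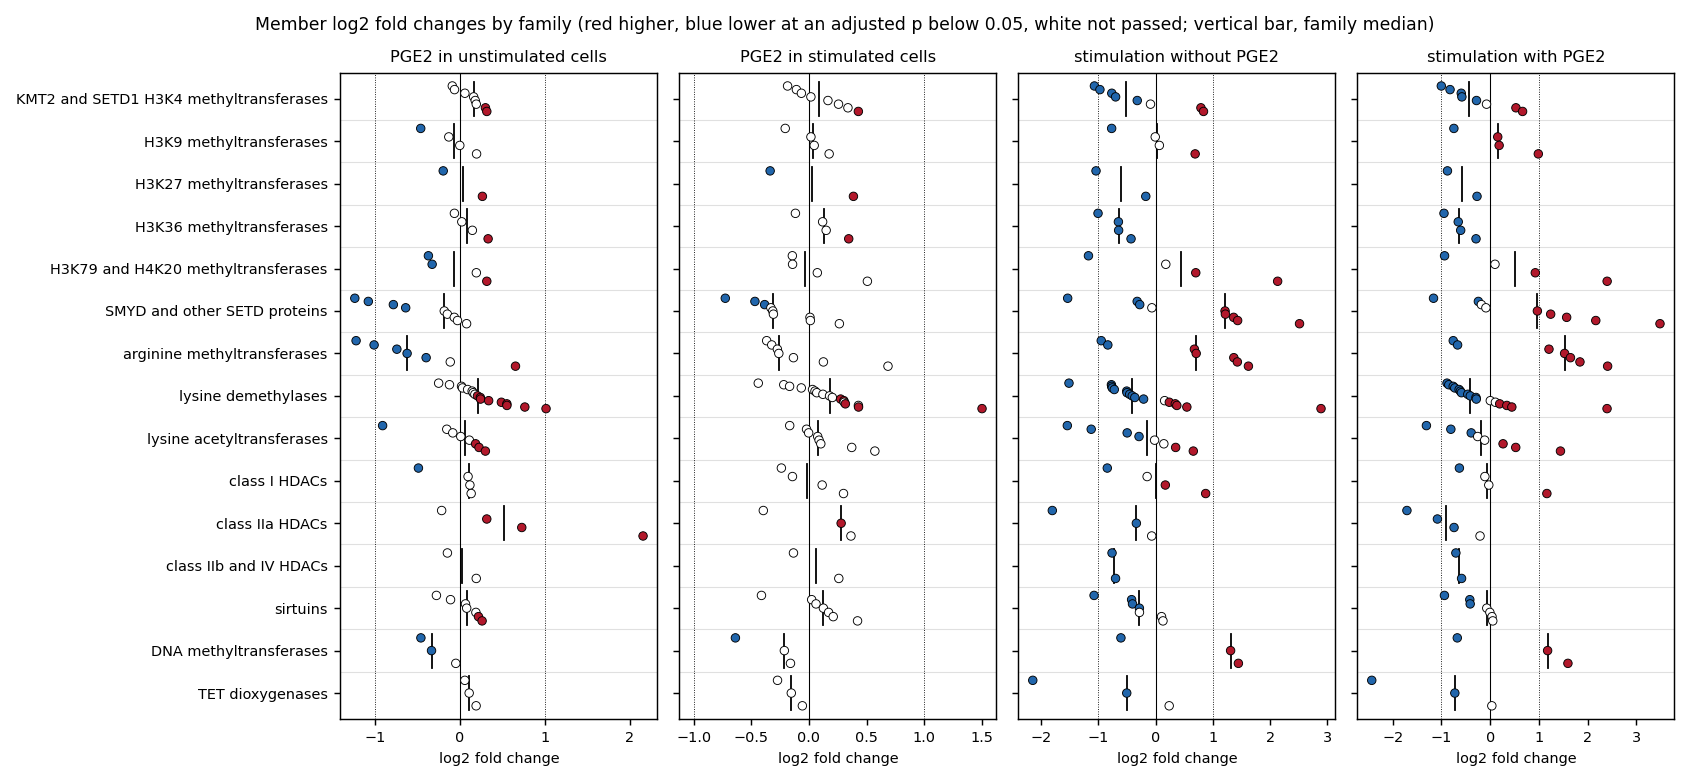
Log2 fold changes of each tested member by family in the 4 pairwise comparisons; each point is a gene, red where it was higher and blue where it was lower with an adjusted p below 0.05, white where it did not pass, the bar is the family's median and dotted lines stand at a log2 fold change of −1 and 1. The horizontal scales differ between the panels. In unstimulated cells with PGE2 the arginine methyltransferases lie to the left (5 of 7 lower) and the lysine demethylases to the right (9 of 17 higher).

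Among the arginine methyltransferases, which methylate histones, splicing factors and ribosomal proteins, 5 of 7 tested members fell with PGE2 in unstimulated cells and 1 rose, with a family median of −0.62. *Prmt3* (ENSMUSG00000030505, chr7:49778346-49858265, plus strand, GRCm38), best known for methylating a protein of the small ribosomal subunit, gave 48.1, 43.1, 37.2 and 43.03 CPM in the 4 unstimulated untreated samples and 20.03, 18.4, 15.5 and 18.4 CPM in the 4 with PGE2. Every treated sample lay below every untreated one, a 2.33-fold fall (log2 fold change −1.22, SE 0.0887, adjusted p = 5.9e-06). *Prmt7* (ENSMUSG00000060098, chr8:106210936-106252794, plus strand), which makes monomethylarginine, stood at 46.97, 44.1, 41.6 and 44.8 CPM without and 22.5, 20.5, 18.6 and 25.3 CPM with PGE2. Again the groups were apart (log2 fold change −1.01, SE 0.0877, adjusted p = 1.55e-05). *Prmt1* (ENSMUSG00000109324, chr7:44975989-44986568, minus strand) gave 116, 119, 113 and 123.1 CPM without and 68.6, 69.6, 60.8 and 79.02 CPM with PGE2. Its groups did not overlap (log2 fold change −0.74, SE 0.0738, adjusted p = 3.59e-05). *Prmt5*, the main symmetric arginine methyltransferase, fell from 119 ± 7.15 to 76.1 ± 5.49 CPM (SD, n = 4; log2 fold change −0.62, adjusted p = 4.71e-05), and *Prmt6*, which methylates H3 arginine 2, from 15.9 ± 2.29 to 11.9 ± 1.24 CPM (−0.40, adjusted p = 0.0193). *Prmt2* was the exception and rose (0.65, adjusted p = 0.000102), while *Prmt9* did not pass (−0.11, adjusted p = 0.181). For *Prmt6*, 23.45% of the exon bases are shared with another gene on the opposite strand, C130013H08Rik, whose mean was 2.305 CPM, and since the counting is not stated to use strand the reads of such pairs cannot be told apart.

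**Figure D3:**
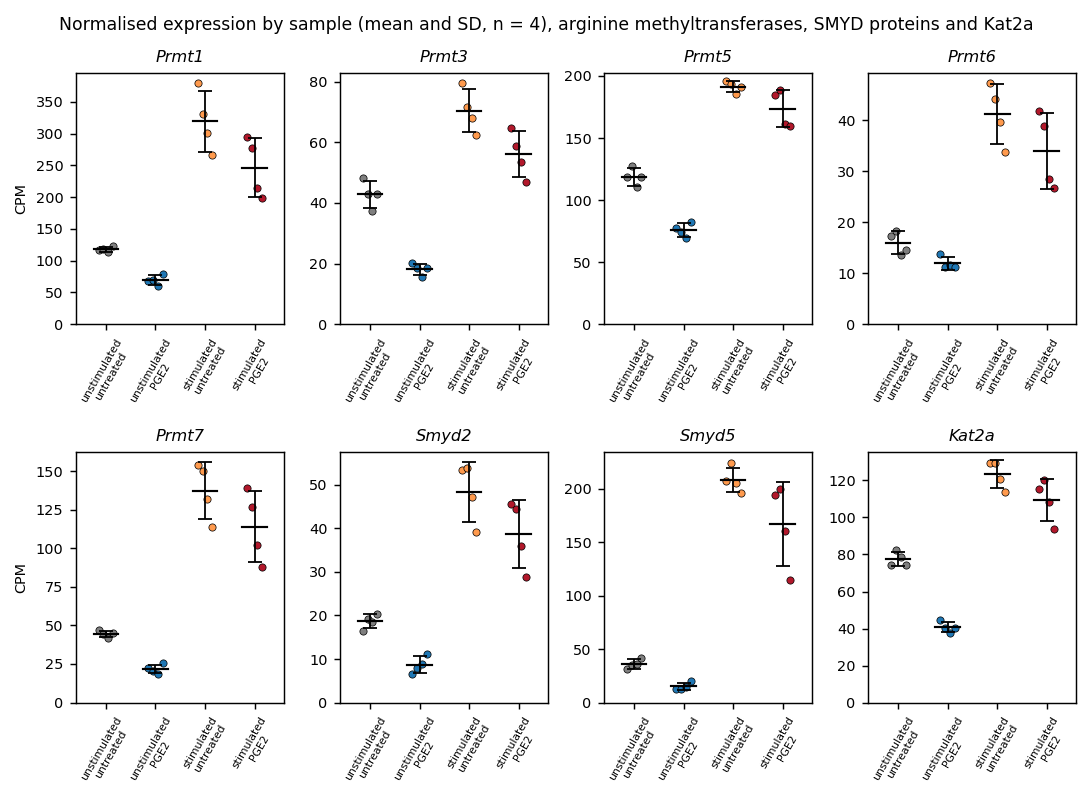
CPM of 8 enzymes that write methyl or acetyl marks, in the 4 groups; each point is a sample and the bar and whisker give the mean and SD of 4. In each panel unstimulated cells with PGE2 have the lowest mean and both stimulated groups have higher means than both unstimulated ones. *Smyd5*, for example, runs from 12.7 to 20.1 CPM in unstimulated cells with PGE2 and from 196 to 224 CPM in stimulated untreated cells.

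The promoters of these genes are shown because several of the enzymes moved together, lower with PGE2 and higher with stimulation. RefSeq promoter windows on GRCm38.p6, running from 250 bases before to 50 bases after the start, matched 74 of the 91 members, with 103 windows. They were searched for the E-box CACGTG, the sequence bound by MYC, MAX and related factors, and for TGACGTCA, the full cAMP response element bound by CREB. The latter was included since PGE2 signals through cAMP by its receptors EP2 and EP4. Both motifs read the same on either strand and do not overlap each other. CACGTG was found in 12 of the 103 windows (11.65%), in 11 genes, against 2349 of 32851 windows of all genes (7.15%). TGACGTCA was found in 2 of the 103, those of *Prmt9* and *Suv39h2*, against 588 of all windows (1.79%). The 250 bases upstream of the start of 3 members with CACGTG follow, 5′ to 3′ on the gene's strand with that motif in capitals: *Prmt1* (chr7:44986421-44986670, minus strand), *Prmt3* (chr7:49778108-49778357, plus strand) and *Dnmt3a* (chr12:3891494-3891743, plus strand).
*Prmt1*: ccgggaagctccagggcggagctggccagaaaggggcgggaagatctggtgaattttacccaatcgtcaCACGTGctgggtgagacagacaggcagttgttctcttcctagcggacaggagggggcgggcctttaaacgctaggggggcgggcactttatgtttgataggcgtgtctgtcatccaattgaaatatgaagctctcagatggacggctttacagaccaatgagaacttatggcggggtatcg
*Prmt3*: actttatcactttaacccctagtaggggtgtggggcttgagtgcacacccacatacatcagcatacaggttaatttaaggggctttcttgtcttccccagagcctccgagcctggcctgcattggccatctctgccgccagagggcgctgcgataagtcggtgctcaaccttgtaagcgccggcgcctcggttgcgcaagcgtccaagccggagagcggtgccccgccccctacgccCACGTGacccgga
*Dnmt3a*: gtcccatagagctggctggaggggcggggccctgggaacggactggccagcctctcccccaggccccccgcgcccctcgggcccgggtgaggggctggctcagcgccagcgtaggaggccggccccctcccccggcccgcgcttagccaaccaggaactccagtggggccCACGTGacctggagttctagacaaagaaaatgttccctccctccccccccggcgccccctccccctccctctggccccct
The motif begins 181 bases before the start in *Prmt1*, 13 bases before it in *Prmt3* and 80 bases before the start shown in *Dnmt3a*. The other *Dnmt3a* windows, which begin at chr12:3806730 and chr12:3806910 and lie nearer the 5′ end of the gene, hold no CACGTG. The 3 members shown are those with the motif that were lower with PGE2 in unstimulated cells. *Hdac5* and *Kat5*, which also hold it, were higher and are not shown. Most of the enzymes that moved together do not hold it. The windows of *Prmt5*, *Prmt6*, *Prmt7*, *Smyd2*, *Smyd5*, *Setd6* and *Kat2a*, which were lower with PGE2 in unstimulated cells and higher with stimulation, hold no CACGTG. Members with the motif did not all move one way. Of the 10 tested members with CACGTG, 2 were higher and 3 lower with PGE2 in unstimulated cells, and 3 were higher and 6 lower with stimulation in untreated cells. Of the tested members without it, 16 of 60 were higher and 13 lower with PGE2, and 20 of 59 were higher and 27 lower with stimulation. A match is a description of the sequence and was not tested as a binding site.

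The SMYD family and the SETD proteins outside the H3K4 and H3K36 groups, many of which methylate lysines of non-histone proteins, gave 4 lower and 0 higher of 9 tested members with PGE2 in unstimulated cells. *Smyd5* (ENSMUSG00000033706, chr6:85431989-85446435, plus strand) gave 30.96, 35.5, 36.2 and 41.6 CPM without and 12.7, 12.7, 14.7 and 20.1 CPM with PGE2. The highest treated sample stayed below the lowest untreated sample (log2 fold change −1.24, SE 0.149, adjusted p = 0.000126). *Smyd2*, which methylates p53 and other proteins besides histones, stood at 18.6 ± 1.61 CPM without and 8.67 ± 1.98 CPM with PGE2 (log2 fold change −1.08, SE 0.152, adjusted p = 0.000351), with 29.96% of its exon bases shared with the opposite-strand Gm37422, whose mean was 7.198 CPM. *Smyd3*, a methyltransferase of histones and of kinases in the MAP kinase pathway, gave 66.8, 72.8, 64.99 and 60.5 CPM without and 45.5, 40.1, 33.7 and 32.9 CPM with PGE2. These groups did not overlap either (log2 fold change −0.78, SE 0.0945, adjusted p = 0.000125). *Setd6*, which methylates the NF-κB subunit RELA, also fell (−0.64, adjusted p = 0.00124).

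Writers of histone acetylation and of the marks on H3K79, H4K20 and H3K9 also held members that fell. *Kat2a* (GCN5, the acetyltransferase of the SAGA and ATAC complexes; ENSMUSG00000020918, chr11:100704746-100712465, minus strand) gave 74.6, 82.7, 78.6 and 74.3 CPM in untreated and 44.6, 40.1, 37.8 and 40.5 CPM in PGE2-treated unstimulated samples. The groups were well apart, and the fall was 1.88-fold (log2 fold change −0.91, SE 0.0600, adjusted p = 4.7e-06). Its paralogue *Kat2b* rose slightly (0.18, adjusted p = 0.0288), as did *Kat5*, the catalytic subunit of the TIP60 complex (0.23, adjusted p = 0.0124), and *Kat6b* (0.30, adjusted p = 0.0329); *Kat5* shares 12.14% of its exon bases with the opposite-strand Rnaseh2c (mean 52.15 CPM). *Dot1l*, the H3K79 methyltransferase, gave 106, 113, 116 and 117 CPM without and 86.1, 80.2, 82.5 and 95.5 CPM with PGE2. The treated samples were the lower ones throughout (log2 fold change −0.37, SE 0.0664, adjusted p = 0.00161). The H4K20 monomethyltransferase *Kmt5a* fell to a like extent (−0.33, adjusted p = 0.00118), the H4K20 enzyme *Kmt5c* rose (0.32, adjusted p = 0.0331), and *Suv39h2*, an H3K9 methyltransferase, fell (−0.46, adjusted p = 0.0247). *Suv39h2*, at 10.7 ± 0.466 CPM without and 7.64 ± 1.46 CPM with PGE2, shares 9.977% of its exon bases with the opposite-strand Dclre1c (mean 22.06 CPM). The paralogue *Suv39h1* did not pass (−0.13, adjusted p = 0.228), but passed with the replicate block, as lower (adjusted p = 0.00613).

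The lysine demethylases moved the other way with PGE2 in unstimulated cells: 9 of 17 tested members rose and 0 fell, with a family median of 0.21. With the replicate block 12 were higher and 1 lower. *Kdm2b* (ENSMUSG00000029475, chr5:122870665-122989823, minus strand), an H3K36 demethylase that recruits a variant Polycomb complex to CpG islands, gave 90.2, 95.4, 109.8 and 106 CPM without and 236, 193, 193 and 179 CPM with PGE2. Every treated sample was above every untreated one, a 2.02-fold rise (log2 fold change 1.01, SE 0.0884, adjusted p = 1.6e-05), and 8.74% of its exon bases are shared with the opposite-strand Rnf34 (mean 37.36 CPM). *Kdm4d*, an H3K9 demethylase at low level here, gave 3.57, 3.23, 4.22 and 3.79 CPM without and 7.10, 4.84, 6.09 and 6.90 CPM with PGE2. The groups did not overlap (log2 fold change 0.76, SE 0.149, adjusted p = 0.00281). The H3K9 and H3K36 demethylase *Kdm4b* rose from 108 ± 5.70 to 156 ± 8.97 CPM (0.55, adjusted p = 9.9e-05), and the H3K4 demethylase *Kdm5b* from 118 ± 4.41 to 171 ± 6.88 CPM (0.55, adjusted p = 2.04e-05). *Kdm7a* (0.49, adjusted p = 0.00773), *Kdm4a* (0.34, adjusted p = 0.00275), *Kdm3a* (0.24, adjusted p = 0.0108), *Kdm2a* (0.24, adjusted p = 0.0219) and *Kdm3b* (0.21, adjusted p = 0.0294) rose less. The H3K27 demethylases did not pass, with log2 fold changes of 0.03 for *Kdm6a* (adjusted p = 0.836) and 0.09 for *Kdm6b* (0.45). *Kdm5c* did not pass without the block (0.14, adjusted p = 0.177) and passed with it, as higher (adjusted p = 0.00803).

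Among the deacetylases, the class IIa enzymes, which shuttle between nucleus and cytoplasm and repress MEF2 targets, gave 3 higher of 4 tested. This count and the family median of 0.52 include *Hdac9*, whose call carries no weight, as described below. Without it, *Hdac4* and *Hdac5* were higher and *Hdac7* did not pass. *Hdac4* (ENSMUSG00000026313, chr1:91928779-92195699, minus strand) gave 56.9, 49.3, 49.7 and 49.1 CPM without and 92.95, 85.1, 81.7 and 74.99 CPM with PGE2. The lowest treated sample was above the highest untreated one (log2 fold change 0.73, SE 0.0695, adjusted p = 2.78e-05). The opposite-strand Gm26720, listed at 0 CPM, shares 22.36% of the exon bases of *Hdac4*. *Hdac5* gave 102, 90.1, 99.7 and 80.01 CPM without and 125, 106, 122 and 104 CPM with PGE2. All 4 treated samples were above all untreated ones (log2 fold change 0.32, SE 0.0865, adjusted p = 0.0178), but without replicate 3 of the treated group its adjusted p was 0.0586. *Hdac9* had at most 0.265 CPM without PGE2 and 0.422 to 0.634 CPM with it, so its fitted log2 fold change of 2.16 (SE 0.458, adjusted p = 0.00466) rests on few reads. It had enough reads to be tested only through the PGE2 group, so the direction of its call carries no weight. *Hdac7* missed the threshold (−0.21, adjusted p = 0.0602) and passed, as lower, with the replicate block (adjusted p = 0.000451). It also passed without unstimulated untreated replicate 1 (adjusted p = 0.0406) or unstimulated PGE2 replicate 3 (0.0365). Of the class I enzymes, *Hdac2* fell (−0.49, adjusted p = 0.000251), while *Hdac1* (0.12, adjusted p = 0.125) and *Hdac3* (0.10, adjusted p = 0.157) passed only with the block, as higher (adjusted p = 0.00933 and 0.0365). In the sirtuins, NAD-dependent deacylases, 2 of 7 rose, *Sirt2* (0.22, adjusted p = 0.0233) and *Sirt6* (0.26, adjusted p = 0.0287), and *Sirt1* did not pass without the block (−0.11, adjusted p = 0.346) but did with it, as lower (0.0423).

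**Figure D4:**
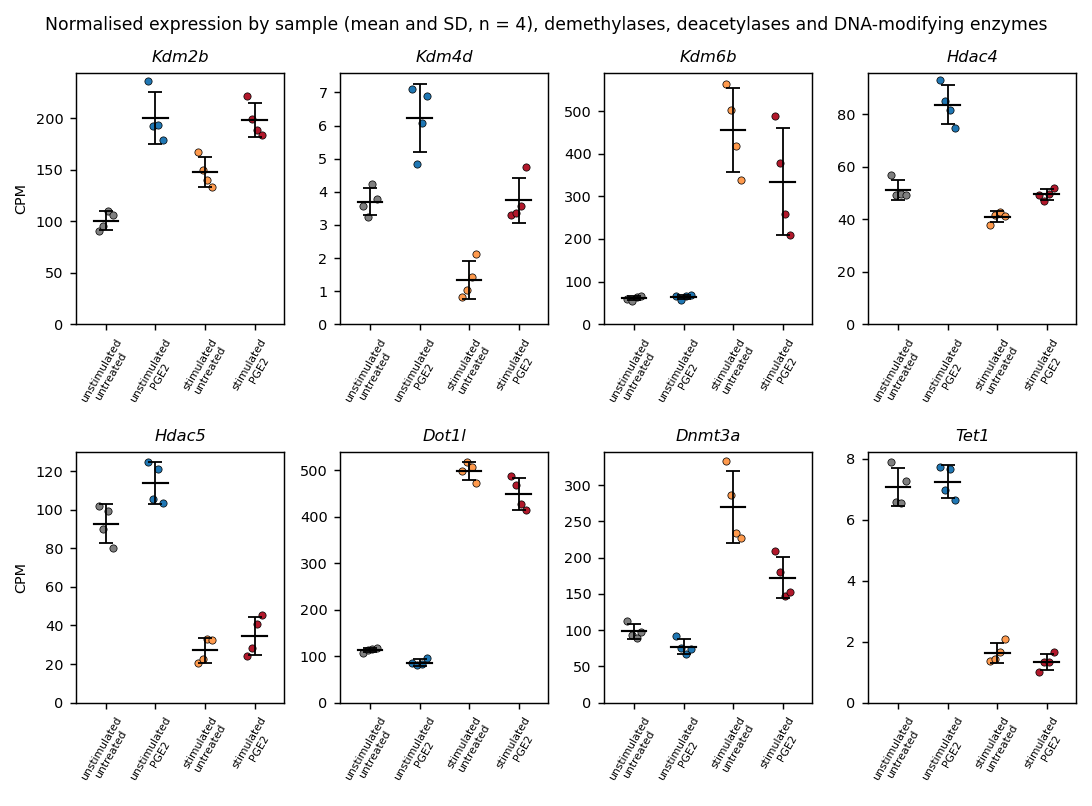
CPM of 8 members, demethylases, deacetylases, *Dot1l*, *Dnmt3a* and *Tet1*, in the 4 groups; each point is a sample and the bar and whisker give the mean and SD of 4. *Hdac4* and *Kdm4d* have their highest means in unstimulated cells with PGE2. *Kdm2b* is near equal with PGE2 in unstimulated and stimulated cells (means 200.3 and 198.2 CPM). *Kdm6b* and *Dot1l* rise several-fold with stimulation, and *Tet1* and *Hdac5* fall with it.

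Enzymes of DNA methylation and further lysine methyltransferases also held members that changed with PGE2 in unstimulated cells. The de novo DNA methyltransferases fell, *Dnmt3b* from 21.6 ± 1.44 to 15.5 ± 0.460 CPM (log2 fold change −0.46, SE 0.0726, adjusted p = 0.000725) and *Dnmt3a* with 113, 93.7, 89.6 and 97.6 CPM without and 92.1, 75.1, 66.97 and 74.5 CPM with PGE2. The *Dnmt3a* groups overlapped, since untreated replicate 3 lay below treated replicate 1 (log2 fold change −0.33, SE 0.0897, adjusted p = 0.0163), and its adjusted p was 0.0682 without treated replicate 2 and 0.0525 without treated replicate 3. *Dnmt1* did not pass (−0.05, adjusted p = 0.566). None of the 3 TET genes passed without the block, with log2 fold changes of 0.06 for *Tet1* (adjusted p = 0.74), 0.19 for *Tet2* (0.195) and 0.11 for *Tet3* (0.473); with the block *Tet2* and *Tet3* were higher (adjusted p = 0.000681 and 0.0278). The H3K27 methyltransferases of Polycomb complex 2 moved apart: *Ezh1* rose (0.27, adjusted p = 0.0163) and *Ezh2* fell (−0.20, adjusted p = 0.0247). Leaving out 1 library gave *Ezh2* adjusted p values up to 0.114, with untreated replicate 2 (0.0831) or 4 (0.0637), or treated replicate 2 (0.114) or 3 (0.0728), left out. In the KMT2 and SETD1 group *Kmt2a* (0.30, adjusted p = 0.0313) and *Kmt2e* (0.32, adjusted p = 0.00954) rose, and the H3K36 methyltransferase *Nsd3* rose as well (0.33, adjusted p = 0.0139). *Kmt2a* lost its call without untreated replicate 1 (adjusted p = 0.054), 3 (0.071) or 4 (0.0819), or treated replicate 1 (0.0688) or 2 (0.0847). *Kmt2d* passed only with the block, as higher (0.19, adjusted p = 0.187; with the block adjusted p = 0.00122). *Kmt2e* shares 9.307% of its exon bases with the opposite-strand Srpk2 (mean 65.2 CPM).

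The second comparison asks what PGE2 did to cells that were restimulated. Without the replicate block single demethylases and *Ezh1* rose while *Dnmt3a*, *Smyd3* and *Ezh2* fell. With the block, which uses the pairing of these samples by number, 56 members passed in place of 14. Among them 5 of the 7 arginine methyltransferases were lower and 1 higher, and 6 of the 9 SMYD and SETD proteins were lower. Of 85 tested without the block, 9 were higher (6.04% of all genes tested) and 5 were lower (3.8%). The 1 DEG was *Kdm4d*, when 1.75% of all genes were DEGs. The median log2 fold change was 0.03 over the members and −0.00612 over all 13922 genes. With the replicate block the counts were 29 higher and 27 lower, when 19.1% of all genes were higher and 20.7% lower. Without the block the count of 14 fell to 6 without stimulated untreated replicate 2 or stimulated PGE2 replicate 3, to 8 without stimulated untreated replicate 1 or 3, and to 9 without stimulated PGE2 replicate 4.

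*Kdm4d* gave 0.821, 1.03, 1.41 and 2.11 CPM in stimulated untreated samples and 3.29, 3.35, 3.57 and 4.74 CPM in stimulated samples with PGE2. Every treated sample was above every untreated one, a 2.83-fold rise (log2 fold change 1.503, SE 0.282, adjusted p = 0.00969). *Kdm2b* gave 167, 150.1, 140.3 and 134 CPM without and 221, 199, 189 and 183 CPM with PGE2, and these groups did not overlap (log2 fold change 0.43, SE 0.0857, adjusted p = 0.0126). *Kdm7a* (0.32, adjusted p = 0.0154), *Kdm4a* (0.30, adjusted p = 0.0419) and *Kdm3a* (0.28, adjusted p = 0.036) made up 5 higher and 0 lower of the 17 demethylases. *Hdac4* rose too (0.28, adjusted p = 0.0305). With the block 9 demethylases were higher and 1 lower. In the leave-one-out fits the adjusted p lay between 0.0191 and 0.0565 for *Kdm7a*, between 0.0288 and 0.128 for *Kdm4a* and between 0.0344 and 0.0855 for *Hdac4*. *Kdm7a* lost its call without untreated replicate 2 or 3 or treated replicate 3, *Kdm4a* without untreated replicate 1, 2 or 3 or treated replicate 2, 3 or 4, and *Hdac4* without untreated replicate 1, 2 or 3 or treated replicate 3 or 4. The leave-one-out fits were not examined for *Kdm3a*.

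The histone lysine methyltransferases that passed in stimulated cells without the block were *Kmt2a*, *Ezh1* and *Nsd3*, which rose, and *Ezh2*, *Smyd3*, *Setd4* and *Smyd1*, which fell. *Ezh1* gave 40.05, 39.5, 40.7 and 41.6 CPM in untreated and 47.7, 49.9, 55.2 and 57.6 CPM in treated stimulated samples. All treated samples were higher (log2 fold change 0.39, SE 0.0734, adjusted p = 0.0102). *Ezh2* gave 200.4, 186, 188 and 204 CPM in untreated and 151, 149.6, 158 and 155 CPM in treated stimulated samples. All treated samples were lower (log2 fold change −0.34, SE 0.0588, adjusted p = 0.007). *Kmt2a*, the MLL1 H3K4 methyltransferase, rose from 167 ± 11.2 to 224 ± 8.50 CPM (0.43, adjusted p = 0.0047). *Smyd3* gave 60.7, 59.4, 50.9 and 49.3 CPM without and 35.99, 35.3, 30.9 and 30.4 CPM with PGE2. The groups were apart here as in unstimulated cells (log2 fold change −0.73, SE 0.0919, adjusted p = 0.00139). *Smyd1* (−0.47, adjusted p = 0.0411), *Setd4* (−0.38, adjusted p = 0.0309) and *Nsd3* (0.35, adjusted p = 0.0223) were close to the threshold, and in the leave-one-out fits their adjusted p lay between 0.0371 and 0.11, between 0.0243 and 0.0942 and between 0.0111 and 0.0792. *Smyd1* kept its call only without untreated replicate 4 and *Setd4* only without treated replicate 1, while *Nsd3* lost its call without untreated replicate 2 or treated replicate 2 or 3.

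*Dnmt3a* (ENSMUSG00000020661, chr12:3806007-3914443, plus strand), the de novo DNA methyltransferase that silences genes as effector cells differentiate, gave 333, 286, 233 and 226 CPM in stimulated untreated samples and 209, 181, 148 and 152 CPM in stimulated samples with PGE2. The treated samples were the lower ones, with all 4 below the lowest untreated sample (log2 fold change −0.64, SE 0.144, adjusted p = 0.0223). Its adjusted p was 0.0665 without untreated replicate 1, 0.0759 without untreated replicate 2, 0.0739 without treated replicate 3 and 0.0554 without treated replicate 4. In both stimulated groups replicates 1 and 2 were higher than replicates 3 and 4, and with the replicate block the adjusted p was 1.8e-06.

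The block altered the calls of the other families in stimulated cells. Without it 0 of the 7 arginine methyltransferases passed, with a family median of −0.26, and with it 5 were lower and 1 higher. The SMYD and SETD proteins gave 3 lower without the block and 6 with it, and the DNA methyltransferases 1 and 3. *Prmt1* had a log2 fold change of −0.37 (adjusted p = 0.132, with the block 0.000205), *Prmt3* −0.32 (0.0826, with the block 0.000259) and *Prmt2*, again of opposite sign, 0.69 (0.0805, with the block 0.000472). The stimulated samples of *Prmt1* gave 379, 331, 301 and 267 CPM without and 294, 277, 215 and 198 CPM with PGE2. Each treated sample was below the untreated sample of its own number, while the groups overlapped. *Kdm6b* had the same layout, with 563, 504, 418 and 339 CPM without and 489.5, 379, 258 and 210.1 CPM with PGE2 (log2 fold change −0.44, adjusted p = 0.277, with the block 0.000818). *Kdm4b* (0.43; 0.0647, with the block 2.05e-05) and *Hdac5* (0.36; 0.311, with the block 0.000792) passed as higher with the block. *Hdac7* (−0.40; 0.161, with the block 0.00196), *Kat2a* (−0.17; 0.232, with the block 0.0088), *Smyd2* (−0.31; 0.209, with the block 0.00097) and *Dnmt1* (−0.16; 0.377, with the block 0.0115) passed as lower with it. So did *Dot1l*, *Tet3*, *Dnmt3b* and *Hdac3*, with adjusted p values of 0.0408, 0.0142, 0.00725 and 0.0203 with the block, and *Kmt2d* as higher (0.0103).

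The effects of PGE2 in unstimulated and in stimulated cells come from separate samples and can be set side by side. Of 85 members tested in both, 70 (82.35%) had the same sign, against 78.53% of 13571 genes. The members past the threshold in both were 9 that were higher each time and 3 that were lower, *Smyd3*, *Dnmt3a* and *Ezh2*. In opposite directions 0 passed. Joint calls were not counted over all genes. Of all genes tested, 12.9% were higher and 15.5% lower with PGE2 in unstimulated cells, and 6.04% and 3.8% in stimulated cells. Across the 85 members, which share the same 16 libraries and are not independent, Pearson's r of the 2 log2 fold changes was 0.731. In the scatter of both effects *Prmt3* (−1.22 unstimulated and −0.32 stimulated), *Smyd5* (−1.24 and −0.31), *Kat2a* (−0.91 and −0.17) and *Kdm4d* (0.76 and 1.503) lie far from the line of equal effects. The difference itself was tested as an interaction, which passed for *Prmt3* and *Kat2a* and not for *Smyd5* (adjusted p = 0.0627) or *Kdm4d* (adjusted p = 0.437).

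**Figure D5:**
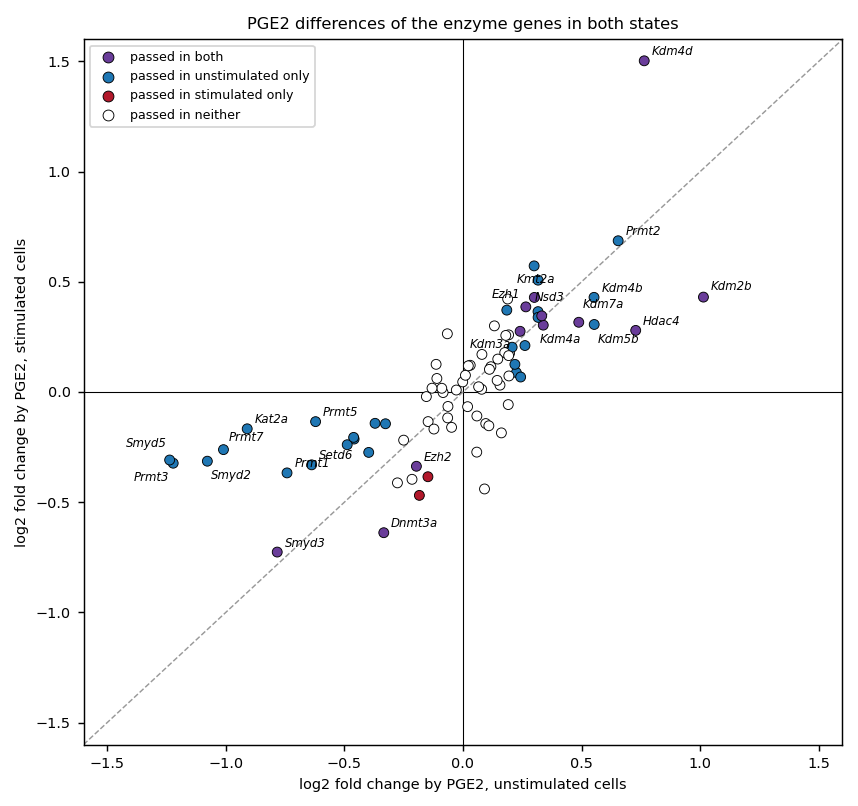
Log2 fold change with PGE2 in unstimulated cells (horizontal) against that in stimulated cells (vertical) for the 85 members tested in both; each point is a gene, coloured by the comparison in which its adjusted p was below 0.05. The points run from lower left, where *Smyd3* (−0.78 and −0.73) passed in both, to upper right, where *Kdm4d* and *Kdm2b* passed in both, and *Prmt3*, *Smyd5* and *Kat2a* lie near the horizontal axis at left.

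The third comparison asks how 4 h of stimulation changed the enzymes in untreated cells, and it moved most of them. Of 85 tested, 26 were higher (31.7% of all genes tested) and 45 were lower (34.8%), and 23 were DEGs (12 higher and 11 lower), when 23.2% of all genes were DEGs. The median log2 fold change was −0.28 over the members and −0.03 over all 14205 genes. Scaling by upper quartiles moved the median of all genes to −0.13 here and that of stimulation with PGE2 to −0.13, where the medians of the members were −0.38 and −0.38, and left 25 members higher and 46 lower here. The replicate block gave 76 members past the threshold in place of 71. The untreated groups enter both this comparison and those of PGE2, so values of the same gene in different comparisons are given side by side only.

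The members with the largest rises were *Kdm6b*, *Smyd5*, *Dot1l* and *Prmt7*. *Kdm6b* (ENSMUSG00000018476, chr11:69398508-69413675, minus strand), which removes H3K27 trimethylation, gave 58.4, 54.9, 64.7 and 66.6 CPM in unstimulated and 563, 504, 418 and 339 CPM in stimulated untreated samples. The lowest stimulated sample was far above the highest unstimulated one, a 7.40-fold rise (log2 fold change 2.89, SE 0.153, adjusted p = 1.94e-08). *Smyd5* rose 5.70-fold, to 207, 224, 205 and 196 CPM (log2 fold change 2.51, SE 0.0955, adjusted p = 4.8e-09). *Dot1l* (ENSMUSG00000061589, chr10:80755206-80795461, plus strand) rose 4.38-fold, to 498, 518, 508 and 472 CPM, and its stimulated samples varied little (log2 fold change 2.13, SE 0.0731, adjusted p = 4.8e-09). In the arginine methyltransferases 5 of 7 rose and 2 fell. *Prmt1* gave 379, 331, 301 and 267 CPM (log2 fold change 1.43, SE 0.105, adjusted p = 1.67e-07) and *Prmt7* 154, 150.0, 132 and 114 CPM in stimulated untreated samples (log2 fold change 1.62, SE 0.101, adjusted p = 5.1e-08). All of these samples were above the unstimulated ones. *Prmt6* (1.36, adjusted p = 1.17e-06), *Prmt3* (0.71, adjusted p = 3.07e-05) and *Prmt5* (0.68, adjusted p = 1.76e-06) rose as well, and *Prmt2* (−0.83, adjusted p = 0.000199) and *Prmt9* (−0.95, adjusted p = 3.88e-07) fell.

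The SMYD and SETD proteins gave 5 higher and 3 lower of 9 with stimulation, with a median of 1.21. *Setd4* (1.43, adjusted p = 1.62e-07), *Smyd2* (1.36, adjusted p = 5.08e-07), *Setd6* (1.22, adjusted p = 1.47e-07) and *Smyd1* (1.21, adjusted p = 9.73e-06) rose at least 2-fold, whereas *Smyd4* fell (−1.53, adjusted p = 2.96e-07). The de novo DNA methyltransferases rose at least 2-fold too: *Dnmt3a* to 333, 286, 233 and 226 CPM (log2 fold change 1.45, SE 0.128, adjusted p = 7.19e-07) and *Dnmt3b* from 21.6 ± 1.44 to 54.03 ± 7.25 CPM (log2 fold change 1.31, SE 0.106, adjusted p = 3.33e-07). *Dnmt1*, the maintenance enzyme, moved the other way, from 409 ± 4.82 to 272 ± 27.3 CPM (−0.61, adjusted p = 1.11e-05). *Kat2a* rose (0.66, adjusted p = 6.36e-06) and *Kat2b*, its paralogue, fell, with 45.3 ± 1.84 CPM before and 15.8 ± 2.17 CPM after stimulation (log2 fold change −1.54, SE 0.0907, adjusted p = 3.68e-08). *Hdac2* (0.87, adjusted p = 1.69e-06), *Kmt5a* (0.70, adjusted p = 2.93e-06), *Suv39h2* (0.69, adjusted p = 1.68e-05), *Kmt2b* (0.84, adjusted p = 2.52e-05), *Setd1a* (0.79, adjusted p = 1.53e-05) and *Kdm2b* (0.55, adjusted p = 0.000255) were further members that rose. In *Setd1a* 52.27% of the exon bases are shared with the opposite-strand 9430064I24Rik (mean 0.3314 CPM).

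The members with the largest falls were *Tet1* and *Hdac5*. *Tet1*, which oxidises 5-methylcytosine, was lowly expressed and gave 7.89, 6.59, 6.56 and 7.26 CPM in unstimulated and 1.35, 1.43, 1.66 and 2.07 CPM in stimulated untreated samples. Every stimulated sample was below every unstimulated one (log2 fold change −2.14, SE 0.162, adjusted p = 1.98e-07). *Tet3* fell less (−0.50, adjusted p = 0.000159) and *Tet2* did not pass (0.24, adjusted p = 0.0573; with the block, as higher, adjusted p = 0.00362). *Tet2* also passed with RLE factors, 1 fit of all 16 samples and DESeq2, and without stimulated replicate 1 (adjusted p = 0.0219) or unstimulated replicate 3 (0.0311) or 4 (0.0412). *Hdac5* (ENSMUSG00000008855, chr11:102194432-102230166, minus strand) fell 3.49-fold, to 20.5, 22.5, 32.9 and 32.3 CPM (log2 fold change −1.80, SE 0.142, adjusted p = 2.73e-07), with all stimulated samples below the unstimulated ones. *Hdac4* fell less (−0.34, adjusted p = 0.00118), and *Hdac7*, the most abundant deacetylase per length, did not pass (−0.07, adjusted p = 0.513). The class IIb enzymes *Hdac6* (−0.70, adjusted p = 0.000381) and *Hdac10* (−0.76, adjusted p = 2.04e-05) fell, as did 4 of the 7 sirtuins, with *Sirt3*, the mitochondrial deacetylase, furthest (−1.07, adjusted p = 1.13e-05); *Sirt3* shares 12.72% of its exon bases with Psmd13 (mean 127.6 CPM).

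Among the demethylases 11 of 17 fell with stimulation and 5 rose. *Kdm4d* fell to 0.821, 1.03, 1.41 and 2.11 CPM (log2 fold change −1.51, SE 0.253, adjusted p = 0.000168), and *Kdm4a* (−0.77, adjusted p = 1.46e-06), *Kdm4b* (−0.77, adjusted p = 1.12e-05), *Kdm7a* (−0.76, adjusted p = 2.6e-06) and the X-linked H3K27 demethylase *Kdm6a* (−0.72, adjusted p = 4.71e-06) fell by similar amounts. The 4 H3K36 methyltransferases fell, led by *Nsd3* (−1.005, adjusted p = 1.18e-07). So did 5 of 8 genes of the KMT2 and SETD1 group, counted with *Setd7*, led by *Kmt2e* (−1.07, adjusted p = 2.43e-07). *Ezh1* fell to 40.05, 39.5, 40.7 and 41.6 CPM, with the groups apart (log2 fold change −1.04, SE 0.0730, adjusted p = 1.16e-07), and *Kmt5c* (−1.17, adjusted p = 1.44e-05) and *Kat6b* (−1.12, adjusted p = 4.38e-06) fell at least 2-fold. *Ezh2* gave 216, 216, 206 and 231 CPM in unstimulated and 200.4, 186, 188 and 204 CPM in stimulated untreated samples. These ranges were close to each other, without overlap, and the fall was small (log2 fold change −0.17, SE 0.0660, adjusted p = 0.0357), with leave-one-out adjusted p between 0.0282 and 0.0943 and the call lost without unstimulated replicate 2 or 4 or stimulated replicate 2 or 3. *Hdac1* (−0.15; adjusted p = 0.0561, with the block 0.0226) and *Kdm5c* (0.16; 0.0579, with the block 0.0165) lay near the threshold. *Hdac1* also passed with upper-quartile factors, with at least 10 counts in every sample and without unstimulated replicate 3 (adjusted p = 0.0449). *Kdm5c* also passed with RLE factors, at least 10 counts in every sample, DESeq2, log2(FPKM + 1) and log2(FPKM + 0.1), and without unstimulated replicate 1 (adjusted p = 0.0413) or stimulated replicate 3 (0.0472). *Kmt2d* (−0.09, adjusted p = 0.432) and *Suv39h1* (−0.01, adjusted p = 0.941) did not pass. *Hdac3* rose slightly (0.17, adjusted p = 0.0346), and in the leave-one-out fits its adjusted p lay between 0.0177 and 0.0882, with the call lost without unstimulated replicate 1, 2 or 3 or stimulated replicate 1 or 3.

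The fourth comparison asks how stimulation changed the enzymes in the presence of PGE2. Of 86 members tested, 27 were higher (32.5% of all genes tested) and 43 were lower (31.7%), and 21 were DEGs (15 higher and 6 lower), when 22.1% of all genes were DEGs. With upper-quartile scaling 23 members were higher and 49 lower. The DEGs that were higher again included *Smyd5*, whose 12.7, 12.7, 14.7 and 20.1 CPM in unstimulated cells with PGE2 stood against 194, 199.8, 160.1 and 115 CPM in stimulated cells with PGE2, a 11.2-fold rise (log2 fold change 3.49, SE 0.214, adjusted p = 1.19e-06). The lowest stimulated sample was well above the highest unstimulated one. *Prmt7* (log2 fold change 2.41, SE 0.158, adjusted p = 1.31e-06), *Dot1l* (log2 fold change 2.40, SE 0.0906, adjusted p = 1.92e-07), *Kdm6b* (log2 fold change 2.40, SE 0.237, adjusted p = 9.09e-06), *Smyd2* (log2 fold change 2.17, SE 0.195, adjusted p = 4.94e-06) and *Prmt1* (log2 fold change 1.84, SE 0.141, adjusted p = 2.31e-06) followed. *Prmt3* (1.65, adjusted p = 1.8e-06), *Kat2a* (1.44, adjusted p = 1.28e-06), *Prmt5* (1.21, adjusted p = 1.86e-06) and *Hdac2* (1.16, adjusted p = 7.34e-06) passed 2-fold with PGE2 present, while their log2 fold changes without PGE2 were 0.71, 0.66, 0.68 and 0.87. The difference was tested as an interaction, described below, which passed for *Prmt3*, *Kat2a* and *Prmt5* and not for *Hdac2*. *Dnmt3b* (1.596, adjusted p = 4.45e-06), *Setd6* (1.57, adjusted p = 3.42e-06), *Prmt6* (1.53, adjusted p = 1.1e-05), *Setd4* (1.24, adjusted p = 0.000198) and *Dnmt3a* (1.18, adjusted p = 1.81e-05) were the other DEGs that rose. *Tet1* (−2.43, adjusted p = 1.43e-06), *Hdac5* (−1.71, adjusted p = 9.48e-06), *Kat2b* (−1.31, adjusted p = 1.19e-06) and *Smyd4* (−1.16, adjusted p = 0.000127) fell with PGE2 present as well, and so did *Hdac9* (−1.08, adjusted p = 0.00896) and *Kmt2e* (−1.003, adjusted p = 1.67e-05). *Hdac9* had enough reads to be tested here only through unstimulated cells with PGE2, so the direction of its call carries no weight. *Kdm2b*, with 236, 193, 193 and 179 CPM in unstimulated and 221, 199, 189 and 183 CPM in stimulated cells with PGE2, did not pass (log2 fold change 0.00, SE 0.0959, adjusted p = 0.984). *Suv39h1* was near the threshold (0.18, adjusted p = 0.0494). Its call was lost in 8 of 10 processing alternatives, with adjusted p up to 0.56, and it had leave-one-out adjusted p between 0.0133 and 0.217 and the call lost without unstimulated replicate 1, 2 or 3 or stimulated replicate 2, 3 or 4.

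The responses to stimulation without and with PGE2 also come from separate samples. Of 85 members tested in both, 83 (97.65%) had the same sign, against 91.22% of 13999 genes. 24 members were higher in both, 42 were lower in both and 0 passed in opposite directions. Joint calls were not counted over all genes. Of all genes tested, 31.7% were higher and 34.8% lower with stimulation without PGE2, and 32.5% and 31.7% with PGE2. Pearson's r across the 85 members was 0.961.

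Whether the effect of PGE2 differed between the 2 states was tested as an interaction over all 16 samples. Of 86 members tested, 3 passed, all with a positive value (0.517% of all 15096 genes tested were positive past the threshold and 0.232% negative), and 0 reached a difference of 1 on the log2 scale, as 0.232% of all genes did. These were *Prmt3*, with a difference of 0.91 on the log2 scale (SE 0.152, adjusted p = 0.00831), *Kat2a*, with 0.75 (SE 0.110, adjusted p = 0.00382), and *Prmt5*, with 0.50 (SE 0.101, adjusted p = 0.0256), each with a larger fall with PGE2 in unstimulated cells or, put the other way, a larger rise with stimulation in PGE2-treated cells. *Prmt3* in stimulated cells gave 79.5, 71.7, 68.1 and 62.4 CPM without and 64.8, 58.8, 53.4 and 46.9 CPM with PGE2, and these groups overlapped. *Kat2a* in stimulated cells gave 129.5, 129.5, 121 and 114 CPM without and 115, 120.2, 108 and 93.9 CPM with PGE2, which overlapped as well. For both genes each treated sample was below the untreated sample of its own number, and both passed as lower with the replicate block. Leaving out 1 library gave *Prmt5* adjusted p values between 0.0104 and 0.0791, with the call lost in 10 of 16 fits: those without any 1 of the stimulated untreated samples, stimulated PGE2 replicate 1 or 2, unstimulated untreated replicate 1 or 2, or unstimulated PGE2 replicate 2 or 3. The *Prmt5* call was also lost in 5 of 9 processing alternatives (RLE factors, no filter and the 3 FPKM fits), with adjusted p up to 0.116, and that of *Prmt3* on log2(FPKM + 1) with and without the filter, with adjusted p up to 0.13. Without unstimulated PGE2 replicate 4 or stimulated PGE2 replicate 4 the count of members was 7. The difference did not pass for *Prmt7* (0.76, adjusted p = 0.0677), *Smyd5* (0.94, adjusted p = 0.0627), *Kdm2b* (−0.57, adjusted p = 0.062) or *Hdac4* (−0.44, adjusted p = 0.0652) without the replicate block, and did with it (adjusted p = 0.0162, 0.0474, 0.0185 and 0.028). *Hdac4* also passed with upper-quartile factors, at least 10 counts in every sample and DESeq2, and without unstimulated untreated replicate 1 (adjusted p = 0.0465), unstimulated PGE2 replicate 4 (0.0314), stimulated untreated replicate 1 (0.037) or stimulated PGE2 replicate 4 (0.0408).

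Exon lengths, as the deposited table gives them, were set beside the directions as a description. With PGE2 in unstimulated cells the members that were higher had a median exon length of 8780.0 bases and those that were lower 5106.0 bases, while over all genes tested the medians were 4938.0 and 3856.0 bases. With stimulation of untreated cells the order turned around, with 5142.5 bases for the members that were higher and 8225.0 for those that were lower (3837.5 and 4371.5 over all genes). With stimulation in the presence of PGE2 the medians were 5179.0 and 8225.0 bases. Across members, the correlation of log2 length and log2 fold change was 0.324 for PGE2 in unstimulated cells, −0.225 for stimulation without PGE2 and −0.325 for stimulation with PGE2, and over all genes tested it was 0.0861, −0.074 and −0.0994. These are descriptions over genes from the same libraries. The part of length in the differences was not tested.

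The partners of these enzymes and the enzymes that make their cofactors were followed with lists of their own. Of 14 cofactor enzymes, 5 were lower and 1 higher with PGE2 in unstimulated cells, and 8 were higher and 5 lower with stimulation of untreated cells; 0 were higher and 1 lower with PGE2 in stimulated cells. Over all genes the shares were 12.9% higher and 15.5% lower with PGE2 in unstimulated cells, 31.7% and 34.8% with stimulation, and 6.04% and 3.8% with PGE2 in stimulated cells, so the 5 of 14 that were lower with stimulation are close to the share of all genes. These shares apply to the other lists of partners as well. *Mat2a*, which makes S-adenosylmethionine, fell from 182 ± 20.9 to 81.01 ± 7.09 CPM with PGE2 in unstimulated cells (log2 fold change −1.15, SE 0.0851, adjusted p = 5.9e-06) and stood at 797 ± 191 CPM after stimulation (log2 fold change 2.12, SE 0.160, adjusted p = 1.94e-07). *Mtap*, which clears the methylthioadenosine that inhibits PRMT5, fell with PGE2 in unstimulated cells (−1.11, adjusted p = 2.98e-06) and rose with stimulation (1.97, adjusted p = 8.41e-08). *Ahcy*, which removes S-adenosylhomocysteine, fell with PGE2 in unstimulated (−0.43, adjusted p = 0.000452) and in stimulated cells (−0.35, adjusted p = 0.00842).

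Among 17 tested enzymes of the same activities under other names, 2 were higher and 3 lower with PGE2 in unstimulated cells, 3 higher and 1 lower with PGE2 in stimulated cells, and 6 higher and 8 lower with stimulation of untreated cells. The arginine methyltransferase *Carm1* (PRMT4) fell with PGE2 in unstimulated cells (−0.40, adjusted p = 0.0018) and rose with stimulation (1.602, adjusted p = 3.72e-08). The JmjC hydroxylase *Riox2* fell with PGE2 in unstimulated (−1.19, adjusted p = 2.98e-06) and stimulated cells (−0.45, adjusted p = 0.0113), and its interaction passed (0.75, adjusted p = 0.00659). The acetyltransferase *Ep300* rose with PGE2 in unstimulated (0.29, adjusted p = 0.0297) and stimulated cells (0.37, adjusted p = 0.0148) and fell with stimulation (−1.04, adjusted p = 2e-07). The H3K9 demethylase *Phf8* moved as *Ep300* did, by 0.28 and 0.34 with PGE2 and −0.72 with stimulation.

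The partner subunits were counted in the same way, and many of their counts lie near the shares of all genes (12.9% higher and 15.5% lower with PGE2 in unstimulated cells, 31.7% and 34.8% with stimulation). Of 9 tested partners of Polycomb complex 2, 2 were higher and 3 lower with PGE2 in unstimulated cells, 1 higher and 1 lower with PGE2 in stimulated cells, and 4 higher and 3 lower with stimulation. The core subunit *Eed* fell with PGE2 in both states (−0.29, adjusted p = 0.00344 unstimulated; −0.41, adjusted p = 0.0352 stimulated) and rose with stimulation (0.86, adjusted p = 3.51e-06), and the accessory subunit *Phf1* moved the opposite way (0.37, adjusted p = 0.0133 unstimulated; 0.41, adjusted p = 0.00759 stimulated; −0.95, adjusted p = 9.69e-07 with stimulation). Of 10 COMPASS partners, proteins of 1 or more H3K4 methyltransferase complexes, 0 were higher and 3 lower with PGE2 in unstimulated cells, 0 passed in stimulated cells, and 2 were higher and 3 lower with stimulation. *Wdr5* fell with PGE2 in unstimulated cells (−0.56, adjusted p = 5.56e-05) and rose with stimulation (1.15, adjusted p = 1.94e-07). Of 16 deacetylase corepressor partners, 1 was higher and 3 lower with PGE2 in unstimulated cells, 0 higher and 2 lower in stimulated cells, and 6 higher and 6 lower with stimulation. *Tbl1xr1*, of the NCoR complex, was lower with PGE2 in both states (−0.45, adjusted p = 0.000291 unstimulated; −0.46, adjusted p = 0.00355 stimulated). Of 8 tested DNA methylation partners, 2 were higher and 1 lower with PGE2 in unstimulated cells, 0 passed in stimulated cells, and 2 were higher and 6 lower with stimulation; *Uhrf1*, which guides *Dnmt1* to hemimethylated DNA, fell with PGE2 in unstimulated cells (−0.32, adjusted p = 0.0017) and with stimulation (−0.66, adjusted p = 1.32e-05), where the thymine glycosylases *Mbd4* (−1.54, adjusted p = 4.79e-07) and *Tdg* (0.88, adjusted p = 8.46e-07) parted. Of 11 acetyl-lysine readers, 2 were higher and 3 lower with PGE2 in unstimulated cells, 0 passed in stimulated cells, and 3 were higher and 4 lower with stimulation. With the replicate block 19.1% of all genes were higher and 20.7% lower with PGE2 in stimulated cells, and the partners past the threshold in either direction were 7 of 9 Polycomb partners, 3 of 10 COMPASS partners, 7 of 16 corepressor partners, 6 of 8 DNA methylation partners, 7 of 17 enzymes of the same activities, 6 of 11 readers and 9 of 14 cofactor enzymes. The counts of COMPASS and corepressor partners and of enzymes of the same activities are thus near the share of all genes. In unstimulated cells, where 23.6% of all genes were higher and 24.2% lower with the block, it gave 6 COMPASS partners, 8 corepressor partners, 9 enzymes of the same activities, 8 readers and 9 cofactor enzymes, and it left the counts of Polycomb and DNA methylation partners at 5 and 3.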

How the data were processed

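The authors aligned paired-end reads of poly(A)-selected libraries to GRCm38 with HISAT2 2.0.5 and counted reads per gene with featureCounts 1.5.0-p3. The deposited counts are whole numbers without normalization. The deposited FPKM values were computed by the authors from these counts and the gene lengths, and were used here for levels compared between genes. Strand use in the counting is not given in the sources used here.

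Counts were tested with edgeR 4.0.16 (R 4.3.3; TMM, filterByExpr with a minimum count of 10, glmQLFit and glmQLFTest, two-sided), with Benjamini-Hochberg adjustment over all genes tested; the authors used DESeq2 1.20.0. Pairwise fits held the 8 samples compared and the interaction fit all 16. The threshold was an adjusted p below 0.05, and DEGs also had a log2 fold change of at least 1 in size. The fits without the block were tested on simulated counts, drawn independently for each sample with the same dispersion for every gene. That simulation held no pairing of samples and did not test the replicate block. CPM values are TMM-normalised over the 16 samples. Alternatives were upper-quartile and RLE factors, filters, DESeq2 1.42.0, limma 3.58.1 on log2(FPKM + 1) and log2(FPKM + 0.1), 1 fit over 16 samples, a replicate block and leaving out each sample.

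Replicate numbers come from the sample titles, which do not say what cultures of one number share, so p-values measure the spread between these samples. Deviations from the group means correlated between samples of the same number at 0.19 to 0.423 for PGE2 in stimulated cells, 0.137 to 0.444 for PGE2 in unstimulated cells and 0.112 to 0.359 for stimulation without PGE2, so the numbers were taken to pair these samples. For stimulation with PGE2 the correlations lay between 0.0439 and 0.281, with 2 of 4 over 0.1, which does not exclude pairing. Over all pairs of groups, 22 of 24 samples correlated best with the sample of their own number. Replicates of 1 group differed by 7.81 to 51.3 times the sampling noise (chi-square per degree of freedom), so no library was a repeat of another.

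For each comparison the named members were the DEGs and, among members past the threshold with a mean of at least 1 CPM, the 8 largest rises and the 8 largest falls, with 23 further members named throughout; other members are named where a family is described, and were chosen after their values were seen. Members, families and partner lists were chosen with earlier results of these data known. Each partner list is shown by up to 4 examples.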

Additional observations from a re-analysis of the deposited data

Results flagged for a closer look

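Each of the 50 named members was looked at in each group of 4 samples, 200 groups in all, for a sample far from the other 3 by Dixon's test, which by chance points to about 5% of groups. It pointed to 8. In unstimulated untreated cells, replicate 1 was apart for *Hdac4* (56.9 CPM, the others 49.1 to 49.7) and for *Kdm7a* (72.9 CPM, the others 58.4 to 60.8). In unstimulated cells with PGE2, replicate 1 was apart for *Prmt6* (13.8 CPM, the others 11.2 to 11.5) and *Tet3* (164.8 CPM, the others 119.5 to 126), replicate 2 was low for *Kdm6b* (56.3 CPM, the others 66.2 to 67.8), and replicate 4 was apart for *Setd6* (17.4 CPM, the others 13.2 to 13.9) and *Suv39h1* (78.1 CPM, the others 66.9 to 68.2). In stimulated untreated cells, replicate 4 was apart for *Setd4* (23.4 CPM, the others 19.9 to 20.4).

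The effect of PGE2 differed between stimulated and unstimulated cells in the interaction test of edgeR for 3 members, with a difference on the log2 scale of 0.91 for *Prmt3* (adjusted p = 0.00831), 0.75 for *Kat2a* (adjusted p = 0.00382) and 0.50 for *Prmt5* (adjusted p = 0.0256). The CPM of all 4 samples of unstimulated cells with PGE2 lay below all 4 of the untreated ones for *Prmt3* and *Kat2a*, and the stimulated groups overlapped for both. Each stimulated sample with PGE2 was still below the untreated sample of its own number. With the replicate block both genes passed as lower with PGE2 in stimulated cells.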

How the results depend on the processing

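For the members named by the rule, the alternatives and left-out libraries gave 2998 values on the same side of the threshold, 117 that no longer passed (72 of them with a library left out) and 55 that newly passed (13 with a library left out). No value past the threshold had the opposite sign to the reported one; 46 values not past it did, in 8 pairs of gene and comparison that did not pass as reported and had log2 fold changes of at most 0.11 in size. Calls that at least 1 processing alternative ended were those of *Dnmt3a* with PGE2 in both states, of *Ezh1*, *Kdm7a*, *Hdac5* and *Kmt2a* in unstimulated and *Hdac4*, *Kdm2b*, *Kdm4a*, *Kdm7a*, *Setd4* and *Smyd1* in stimulated cells with PGE2, of *Ezh2* and *Hdac3* with stimulation without PGE2, of *Suv39h1* with stimulation with PGE2, and of *Prmt3* and *Prmt5* in the interaction. For PGE2 in stimulated cells, the members past the threshold numbered 14, and 56 with the replicate block that pairs the samples, 22 with DESeq2, 7 on log2(FPKM + 1) without a filter and between 6 and 20 with 1 library left out; the DEG count of 1 became 0 on log2(FPKM + 1), with and without the filter, and on log2(FPKM + 0.1). For PGE2 in unstimulated cells, 40 became 62 with the replicate block and 25 on log2(FPKM + 1) without a filter, and the 6 DEGs became 0 on log2(FPKM + 1) with and without the filter. For stimulation without PGE2, 23 DEGs became 15 on log2(FPKM + 1) with and without the filter. For the interaction, 3 became 6 with upper-quartile factors, 5 without a filter, 5 with at least 10 counts in every sample, 8 with the replicate block, 7 with DESeq2 and 1 on log2(FPKM + 1), with and without the filter, and lay between 2 and 7 with 1 library left out; the DEG count of 0 lay between 0 and 1. A pseudocount shrinks the fold changes of lowly expressed genes by its construction; the cause of the other shifts was not tested. The block changed a few calls of stimulation with PGE2 as well (70 became 71), where samples of the same number were less closely correlated (0.0439 to 0.281). Members with under 1 CPM, such as *Hdac9*, are limited by depth.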
